A study of Mus musculus with 477 samples.

Results

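Luminal cells of the virgin mammary gland were compared with and without *Brca1*: 74 cells from 2 *Brca1*-deficient mice against 40 cells from 1 mouse with wild type *Brca1*, out of 477 cells from 11 mice in all, of which 312 cells from 7 mice were luminal. They were chosen by their labels alone, 35 cells labelled vBrL and 39 labelled vBr53L against 40 labelled v53L. The mouse vBrL carried MMTV-Cre; Brca1fl/fl, vBr53L carried MMTV-Cre; Brca1fl/fl; Trp53fl/+, and v53L carried MMTV-Cre; Trp53fl/+, by the methods of the study. For the flow cytometry of such mice the study writes Trp53fl/fl instead, and the labels do not give the alleles, so the *Trp53* dose of these mice is uncertain. All 3 also carried the ROSA mT/mG reporter, which turns cells green once Cre has acted, and were females of 3 to 4 months on a mixed C57BL/6 and 129/Sv background. MMTV-Cre is active in part of the mammary epithelium, so only cells in which it had acted were sorted (DAPI- CD24Hi CD29Lo mGFP+, the luminal gate). Only vBr53L shared the *Trp53* label with v53L. Each virgin mouse had its own microfluidic chip (SC10 for vBrL, SC7 for vBr53L and SC9 for v53L), so chip, mouse and genotype cannot be told apart. Luminal cells of 4 mice at day 12.5 of pregnancy (pBrL-1, pBrL-2, pBr53L and p53L) entered the fits to give the spread between mice, and pBr53L shared chip SC7 with vBr53L, as p53L shared SC9 with v53L.

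The virgin luminal layer holds 2 well known kinds of cell. Hormone-sensing cells carry the receptors for estrogen, progesterone and prolactin and signal to their neighbours with secreted ligands. Progenitor and alveolar cells lack most of these receptors, divide in response to those ligands and make milk proteins in late pregnancy and lactation. BRCA1 takes part in the repair of DNA breaks, and its loss in mammary epithelium leads to tumors that often lack the hormone receptors. The question here was therefore how *Brca1* status went with gene levels in virgin luminal cells, and how much of any difference followed the share of cells with high *Esr1* and *Prlr*.

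The cells were luminal by their markers. The keratins *Krt8* and *Krt18* and the adhesion protein *Epcam* each reached 100 CPM (read counts scaled to a common library total) in at least 33 of 35, 39 of 39 and 39 of 40 cells of vBrL, vBr53L and v53L. The basal keratin *Krt5* had 0 reads, while *Krt14*, another basal keratin, had a read in 5 of 35, 9 of 39 and 0 of 40 cells. Summed over cells, the depth was 69313380, 68007334 and 40338926 reads in vBrL, vBr53L and v53L, with a median of 4552, 5028 and 3672.5 genes per cell, so low genes were harder to detect in v53L. The 10 basal markers summed to 111, 76.1 and 1.71 CPM in vBrL, vBr53L and v53L, and the 10 immune markers to 72.6, 65.8 and 9.72 CPM. The 8 fibroblast markers summed to 712, 579 and 176 CPM, nearly all from *Dcn*, with *Col1a1*, *Col1a2*, *Col3a1*, *Lum*, *Pdgfrb* and *Thy1* at or near 0. Their part in the results was not tested. *Brca1* (chromosome 11, 101488764 to 101551955, mm10) was at 4.24, 29.9 and 6.99 CPM in vBrL, vBr53L and v53L, and more than 90% of its reads lay in a single cell in each mouse. These counts include exons outside the deleted part and do not check the genotype. *Trp53* was at 92.5, 164 and 93.4 CPM.

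Hormone-sensing cells made up very different shares of the 3 mice. A cell was put in the hormone-sensing class when its mean log2(CPM + 1) over 8 genes of hormone-sensing cells (*Pgr*, *Foxa1*, *Cited1*, *Prom1*, *Ly6a*, *Tbx3*, *Wnt4* and *Areg*) exceeded that over 8 genes of progenitor and alveolar cells (*Elf5*, *Kit*, *Cd14*, *Aldh1a3*, *Csn3*, *Wfdc18*, *Trf* and *Mfge8*). *Esr1* and *Prlr* were not used. The class held 19 of 40 cells in v53L (47.5%, exact 95% binomial interval 31.5% to 63.9%), 6 of 35 in vBrL (17.1%, 6.56% to 33.6%) and 1 of 39 in vBr53L (2.56%, 0.0649% to 13.5%). The intervals cover counting error only. When *Esr1* and *Prlr* at 100 CPM each set the class instead, it held 17 of 40 cells in v53L (42.5%), 9 of 35 in vBrL (25.7%) and 2 of 39 in vBr53L (5.13%), so v53L and vBrL lay closer together. The share in v53L lay above both other intervals, although its own interval overlapped that of vBrL. The smallest p that an exact permutation test of 2 mice against 1 allows is 1 in 3, so the shares were not tested. The class is a range of a score rather than a cell type, and 4, 0 and 1 cells of vBrL, vBr53L and v53L lay within 1 unit of its limit. Of the pregnant mice, pBrL-2 and pBr53L had 1 cell each in the class, and pBrL-1 and p53L had 0. By clustering, 32 virgin cells of all 3 mice fell into a single group led by *Ptn*, *Gpx3*, *Stc2*, *Cited1* and *Prlr* (6, 2 and 24 cells of vBrL, vBr53L and v53L). The other cells split by mouse: 26 of 27 cells of another group came from vBrL, 35 of 38 from vBr53L and 16 of 17 from v53L.

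*Prlr*, the prolactin receptor (chromosome 15, 10177238 to 10349180), had its highest level in v53L over all cells. It was at 1245 CPM for vBrL and 525 for vBr53L against 3713 for v53L, and 162 to 221 in the pregnant mice. Both deficient mice lay below v53L, but the difference did not pass the test (edgeR quasi-likelihood test, adjusted p = 0.072), and it passed in 6 of 17 alternatives, over which its adjusted p ran from 0.0017 to 0.778. *Esr1*, the estrogen receptor, was at 184, 51.8 and 469 CPM (adjusted p = 0.206). The hormone-sensing class held 65.1%, 24.3% and 80.9% of the *Prlr* reads in vBrL, vBr53L and v53L, and cells with a score between -5 and 0 held 23.6%, 54.3% and 18.1%.

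Within the hormone-sensing class the values lay closer together than over all cells. *Prlr* stood at 5456 CPM in the 6 vBrL cells, 3345 in the single vBr53L cell and 6327 in the 19 v53L cells, where single cells ranged from 1454 to 12726 CPM around a median of 5600. *Esr1* stood at 828, 648 and 773 CPM in the same cells. With 1 cell in vBr53L no test was made. That cell also had 7028 CPM of *Dcn*, a matrix protein of fibroblasts, and 821 CPM of red cell markers, against 574 and 4.76 CPM in the class in vBrL and 358 and 34.2 in v53L. Between -5 and 0 *Dcn* was at 3672, 1962 and 38.5 CPM in vBrL, vBr53L and v53L. Their part in the values of the class was not tested. When reads of 3 score classes (above 0, -5 to 0 and below -5) were weighted by the share of reads each had in v53L, v53L exceeded vBrL by 1.26-fold and vBr53L by 1.89-fold in *Prlr*, where it had exceeded them by 2.98-fold and 7.08-fold as measured. For *Esr1* the excess went from 2.55-fold to 1.08-fold for vBrL and from 9.04-fold to 1.44-fold for vBr53L. In vBr53L the class above 0 was the single cell described above, which carried 47.5% of the weight. The weighted values of vBr53L therefore rest largely on 1 cell.

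Outside the class the result for *Prlr* turned on where the limit was drawn. Over all cells outside the class *Prlr* was at 510, 413 and 1348 CPM in vBrL, vBr53L and v53L, and the difference passed the edgeR test (adjusted p = 0.037). It did so in 10 of 21 alternatives, and not with the correction of edgeR for small counts (adjusted p = 0.102), without pBr53L (0.056) or without pBrL-2 (0.062). The v53L level was highest between the limits: 6 cells of v53L with a score between -5 and 0 were at 4165 CPM, against 1730 in 6 cells of vBrL and 1999 in 5 of vBr53L. In the 23, 33 and 15 cells with a score below -5, *Prlr* was at 206, 137 and 94.8 CPM, with v53L lowest (adjusted p = 0.674). That last difference was 0.43 in log2 as fitted and -0.25 relative to the median gene, so its direction depended on the scaling. *Esr1* in the same low-score cells was at 149 CPM in v53L against 61.99 in vBrL and 22.3 in vBr53L, without passing the test (adjusted p = 0.080). A single cell held 89.3% of these v53L reads, 67.1% of those in vBrL and 63.8% of those in vBr53L.

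**Figure D1:**
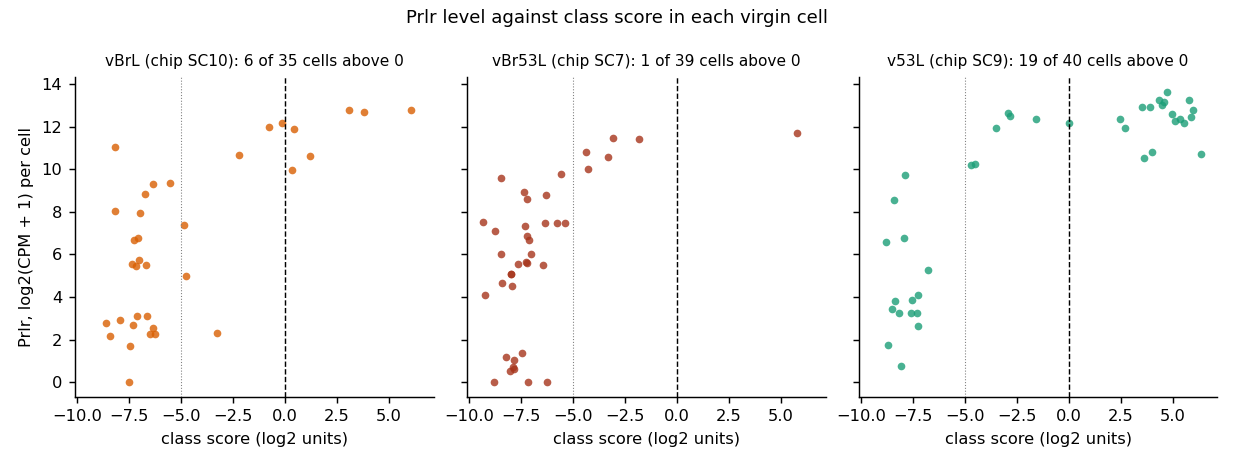
*Prlr* level in each virgin cell, as log2(CPM + 1), against its class score in log2 units, with 1 panel per mouse and 1 point per cell. The dashed line at 0 marks the limit of the hormone-sensing class and the dotted line marks -5, and 19 cells of v53L, 6 of vBrL and 1 of vBr53L lie above 0, each at 1005 CPM of *Prlr* or more.

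**Figure D2:**
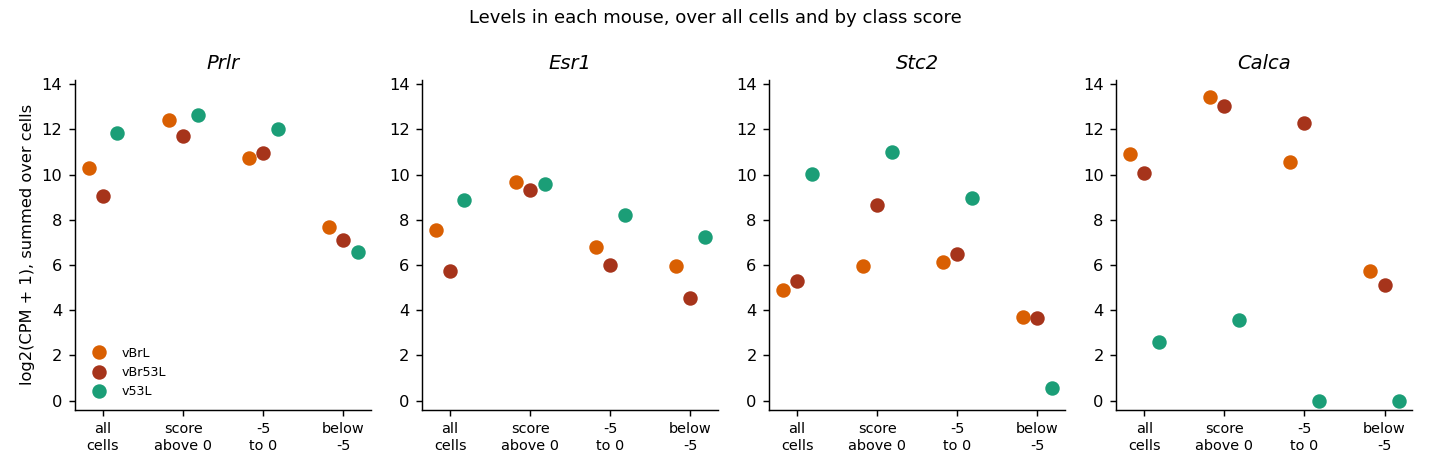
Level of *Prlr*, *Esr1*, *Stc2* and *Calca*, as log2(CPM + 1) of reads summed over cells, in each of the 3 virgin mice (colors), over all cells and by class score. *Prlr* in cells above 0 stood at 5456, 3345 and 6327 CPM in vBrL, vBr53L and v53L, while *Calca* was high in both *Brca1*-deficient mice and near 0 in v53L.

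Over all cells, 140 of 15550 genes (0.9%) were called at an adjusted p under 0.05 (edgeR), with 1828 at an unadjusted p under 0.05. On simulated counts of the same spread this test made more false calls than its threshold allows, so single calls are provisional. Of the 140, 118 were higher in the *Brca1*-deficient mice (0.759% of the genes tested) and 22 were lower (0.141%), and 61 had 0 reads in v53L. With the small-count correction 26 genes (0.167%) were called, 10 higher (0.0643%) and 16 lower (0.103%), and 19 of them were among the 140. Without vBr53L the count was 343, and without vBrL, which leaves the 2 mice with the same *Trp53* label, it was 304, with the lone mouse on each side assumed to vary like the other groups. The median gene sat 0.11 above 0 in log2 on this scale, 0.05 with RLE factors and 0.21 with library size alone, and log2 changes below are given relative to it.

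Many cell cycle genes were higher in both deficient mice. Of 20 proliferation genes, 19 were higher in both deficient mice than in v53L, where 31.3% of all genes tested were, and 11 were called higher and 0 lower, where 0.759% and 0.141% of all genes were. With the small-count correction 2 were called, *Mki67* and *Top2a*, where 0.0643% of all genes were called higher. Outside the hormone-sensing class 12 were called higher, where 2.1% of all genes were, and 0 with the correction. Summed over the list the level was 1466, 1352 and 81.3 CPM in vBrL, vBr53L and v53L. *Mki67*, a marker of dividing cells, was at 126 and 128 CPM in vBrL and vBr53L, with 1 read in all of v53L (adjusted p = 0.0015). *Top2a*, the topoisomerase that untangles replicated DNA, was at 244 and 86.96 CPM and had 0 reads in v53L (adjusted p = 0.0019). *Cdk1*, the kinase that drives entry into mitosis, was at 62.2 and 81.98 CPM against 0 reads (adjusted p = 0.0019). *Uhrf1*, which maintains DNA methylation during replication, was at 151 and 165 CPM against 1 read. *Mcm5*, part of the replicative helicase, was at 98.4 and 78.01 CPM against 0.248. The mitotic kinase *Pbk*, the spindle proteins *Kif11* and *Tpx2* and the survival and mitosis protein *Birc5* were also called, at 26.3 to 154 CPM in the deficient mice and at most 0.0992 in v53L. None of these 4 was called with the small-count correction, with adjusted p of 0.073, 0.166, 0.159 and 0.104 for *Pbk*, *Kif11*, *Tpx2* and *Birc5*. In the hormone-sensing class the list stood at 2413 CPM in vBrL, 956 in the single cell of vBr53L and 69.7 in v53L. In vBrL 1 cell, with a score of 1.20, held 89.5% of these reads and had 17 of the 20 genes at 10 CPM or more. The vBrL cells at scores of 0.33 and 0.41 had 6 and 5 such genes, and the 3 cells with higher scores had 2, 0 and 0.

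The reads were spread unevenly over cells. At full depth *Mki67* had a read in 10 of 35 cells of vBrL, 20 of 39 of vBr53L and 1 of 40 of v53L, and exceeded 100 CPM in 6, 8 and 0. After thinning each cell to 100000 reads, which left out no cell, *Mki67* had a read in 8 of 35 cells of vBrL, 12 of 39 of vBr53L and 0 of 40 of v53L. That 0 allows up to 7.5% of cells with a read at this depth, by counting error alone. In a count chosen after the values were seen, 13, 11 and 0 cells had at least 5 of the 20 genes at 10 CPM or more. The pregnant mice were at 1041 to 2113 CPM summed over the list, and p53L, on the chip of v53L and with 45835235 reads, was at 1041 CPM, with *Mki67* at 111 CPM. *Kif11* in vBrL took 59.9% of its reads from 1 cell.

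**Figure D3:**
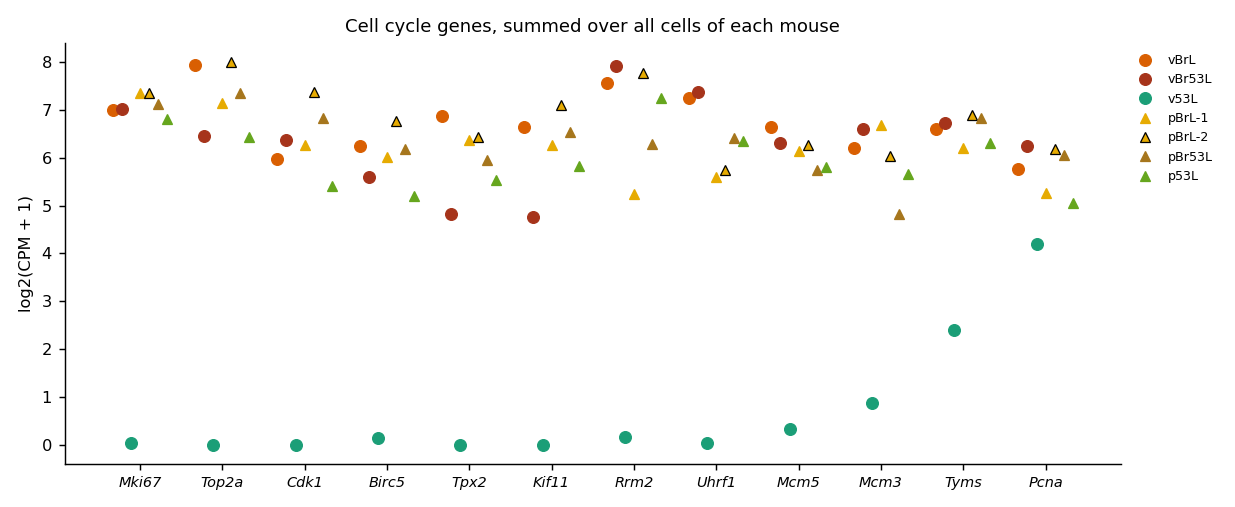
Levels of 12 cell cycle genes, as log2(CPM + 1) of reads summed over all cells, in the 3 virgin mice (circles) and the 4 pregnant mice (triangles, pBrL-2 outlined in black). The v53L mouse sits at or near 0 for *Mki67*, *Top2a*, *Cdk1*, *Tpx2* and *Kif11*, below every other mouse, while p53L from the same chip lies with the rest.

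The promoters of *Top2a* and *Mki67* are shown because the genes moved together. CCAAT, the box bound by NF-Y, was searched on both strands in the 250 bases before each RefSeq start site (GRCm38.p6). Some of these windows overlap the longer GENCODE gene, so only windows outside it are printed. CCAAT stood in 33.8% of 32851 such windows and in 16 of the 18 proliferation genes that had a window. The search for TTTGAA, a form of the cell cycle homology element, found it in 5252 of the 32851 windows and in 5 of the 18 (*Mki67*, *Top2a*, *Cdk1*, *Ccnb2* and *Mcm2*). The windows of *Top2a* (chr11:99024190-99024439, minus strand) and *Mki67* (chr7:135716380-135716629, minus strand) follow 5′ to 3′ with each CCAAT match on either strand in capitals, of which there are 6 and 3. A match describes the letters and is no evidence of binding.
*Top2a*: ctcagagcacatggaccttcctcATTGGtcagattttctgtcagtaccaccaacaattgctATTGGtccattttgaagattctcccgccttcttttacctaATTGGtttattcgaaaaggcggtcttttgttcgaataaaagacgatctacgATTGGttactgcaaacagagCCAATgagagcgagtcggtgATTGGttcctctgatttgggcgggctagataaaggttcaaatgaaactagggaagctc
*Mki67*: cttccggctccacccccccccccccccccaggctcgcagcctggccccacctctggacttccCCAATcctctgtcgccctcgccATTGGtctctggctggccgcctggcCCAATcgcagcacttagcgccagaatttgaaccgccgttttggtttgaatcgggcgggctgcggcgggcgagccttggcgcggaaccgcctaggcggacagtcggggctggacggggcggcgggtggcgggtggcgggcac

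The other genes higher over all cells had varied roles. *Rspo1*, a secreted enhancer of Wnt signalling, was at 70.7 CPM in vBrL and 101.6 in vBr53L with 0 reads in v53L (adjusted p = 0.0019, and 0.061 with the small-count correction). It had a read in 14 of 35, 18 of 39 and 0 of 40 thinned cells. *Thrb*, a thyroid hormone receptor, was at 40.8 and 65.7 CPM against 0 reads (adjusted p = 0.0019, and 0.100 with the correction). *Edn1*, the vasoactive peptide endothelin, was at 132 and 154 CPM against 4.09, a log2 change of 4.92 ± 0.62 (SE, adjusted p = 0.0067, and 0.037 with the correction). In p53L, on the chip of v53L, *Rspo1*, *Thrb* and *Edn1* were at 65.8, 61.8 and 61.8 CPM. *Thrsp*, which promotes fatty acid synthesis, was at 474 and 94.9 CPM against 0.347 and was called both ways (adjusted p = 0.0067, and 0.032 with the correction).

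The genes named as lower over all cells were *Stc2*, *Tmed3*, *Nupr1*, *Fgg*, *Eps8*, *Arid3a* and, described further on, *Lalba*, *Chil1*, *Deptor*, *Gle1* and *Adamts15*. *Stc2*, a glycoprotein induced by estrogen, was at 29.04 CPM in vBrL and 37.9 in vBr53L against 1057 in v53L, a log2 change of -5.19 ± 0.53 (SE, adjusted p = 0.0033). Inside the hormone-sensing class, where no test was made, it stood at 60.9 CPM in vBrL, 406 in the single vBr53L cell and 2056 in v53L, whose 19 cells ranged from 321 to 6045 CPM. The 6 vBrL cells reached at most 123 CPM and did not overlap with them. Outside the class *Stc2* was at 23.5, 23.4 and 154 CPM and did not pass the test (adjusted p = 0.085), and below a score of -5 the order turned, at 12.1, 11.7 and 0.478 CPM (adjusted p = 0.274). *Tmed3*, a cargo receptor of the secretory pathway, was at 268, 173 and 3039 CPM (adjusted p = 0.0033), with 86.5% of its v53L reads in the class. Outside the class it was at 186, 157 and 779 CPM (adjusted p = 0.016, and 0.061 with the correction), and below a score of -5 at 158, 125 and 196 CPM (adjusted p = 0.278). *Nupr1*, a stress-induced chromatin protein, was at 507, 765 and 5152 CPM (adjusted p = 0.023), with 77.5% of its v53L reads in the class. Outside the class it was at 451, 623 and 2211 CPM (adjusted p = 0.045, and 0.088 with the correction), and below -5 at 130.3, 473 and 999 CPM (adjusted p = 0.099). *Fgg*, a fibrinogen chain, was at 68.6, 86.8 and 909 CPM over all cells (adjusted p = 0.017) but did not pass the test outside the class (adjusted p = 0.514), and 13 of the 15 v53L cells above 100 CPM were in the class. *Eps8*, an adaptor of growth factor receptors, was at 1.30, 0.559 and 107.1 CPM (adjusted p = 0.023), and outside the class its adjusted p was 0.382. *Arid3a*, a DNA-binding protein, was at 0, 0.0147 and 62.2 CPM (adjusted p = 0.023, but 0.123 with the small-count correction and 0.058 outside the class), and 52.8% of its v53L reads came from 1 cell.

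Outside the hormone-sensing class 385 of 15332 genes (2.51%) were called, 322 higher (2.1%) and 63 lower (0.411%) in the deficient mice, and 166 had 0 reads in v53L. With the small-count correction 13 (0.0848%) were called, 2 higher (0.013%) and 11 lower (0.0717%), all among the 385. The count was 1223 without vBr53L and 878 without vBrL. Of the 140 genes called over all cells, 124 were also called here. Both tests used the same 29 of 35 cells of vBrL, 38 of 39 of vBr53L and 21 of 40 of v53L, so this overlap is partly built in. The v53L cells outside the class were shallow, with a median of 2996 genes against 4538 in vBrL and 5031 in vBr53L. The median gene sat 0.34 above 0 in log2, 0.24 with RLE factors and 0.63 with library size alone.

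Several secretory and milk genes were lower in the deficient mice in these cells. *Lalba*, the alpha-lactalbumin subunit of lactose synthase (chromosome 15, 98480400 to 98482721), was at 21.2 CPM in vBrL and 14.6 in vBr53L against 1329 in v53L, a log2 change of -6.84 ± 0.49 (SE, adjusted p = 0.0011, and 1.8e-04 with the correction). It exceeded 100 CPM in 1 of 29, 2 of 38 and 16 of 21 cells, and had any read in 12 of 29, 9 of 38 and 17 of 21. *Chil1*, a secreted chitinase-like protein, was at 210, 199 and 3115 CPM (adjusted p = 0.0054). *Btn1a1*, a protein of the milk fat globule membrane, was at 93.95, 132 and 823 CPM (adjusted p = 0.0090). *Csn3*, kappa-casein, was at 8136, 11587 and 33417 CPM (adjusted p = 0.028), and *Trf*, the iron carrier transferrin, at 680, 1013 and 4345 CPM (adjusted p = 0.012). *Csn3* and *Trf* were among the genes that set the class. All 5 were also called with the small-count correction. In single cells *Trf* ran from 0.565 to 3705 CPM in vBrL, from 19.8 to 3951 in vBr53L and from 552 to 8884 in v53L, and its medians were 560, 699 and 4521 CPM.

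Of the 13 milk protein genes tested outside the class, 8 were lower in both deficient mice than in v53L, where 21.5% of all genes were, and 4 were higher in both, where 38.7% were. Summed over the list the level was 60861, 61581 and 92985 CPM. By the test 3 were called lower (*Lalba*, *Csn3* and *Trf*), where 0.411% of all genes were, and 1 higher (*Glycam1*), where 2.1% of all genes were. *Csn3*, *Trf*, *Wfdc18* and *Mfge8* of this list also helped set the class, so its counts and sum are not independent of the choice of cells. *Glycam1* was at 18.2, 6.19 and 0 CPM, with reads after thinning in 2, 2 and 0 cells, and was not called with the correction (adjusted p = 0.477). *Csn2*, beta-casein, was at 12500, 12076 and 17764 CPM (adjusted p = 0.268) and *Csn1s1*, an alpha-casein, at 11490, 7046 and 12645 CPM (adjusted p = 0.384). *Wfdc18*, a whey-type protein that also set the class, had the opposite order at 13593, 21351 and 5703 CPM (adjusted p = 0.121). Of 16 milk lipid genes, 1 was called lower (*Btn1a1*) and 2 higher (*Thrsp* and the fatty acid carrier *Cd36*), beside the same 0.411% and 2.1% of all genes. Neither higher call held outside the class with the correction (adjusted p of 0.083 for *Thrsp* and 0.449 for *Cd36*). *Cd36* was at 85.4, 7.60 and 0 CPM, so vBrL stood far above vBr53L. The median log2 change over the milk proteins was -0.82 as fitted, against 0.34 over all genes. Over all cells, with the hormone-sensing class included, the milk proteins were not lower as a list. They summed to 52056, 59238 and 49524 CPM in vBrL, vBr53L and v53L. There 5 were higher and 4 lower in both deficient mice, where 31.3% and 28.5% of all genes were.

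In the pregnant mice *Lalba* was at 196 CPM in p53L and 148 to 224 in the others, and *Chil1* at 21.9 in p53L and 18.96 to 36.7 in the others. *Btn1a1* was at 598 CPM in p53L and 374 to 621 in the others, where v53L was at 823. *Trf* was at 1955 CPM in p53L and 1407 to 1924 in the others, where v53L was at 4345. The p53L mouse shared chip SC9 with v53L but was another mouse at another stage, and the part of the chip was not tested. *Csn3* in the pregnant mice is in the plot of milk genes.

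**Figure D4:**
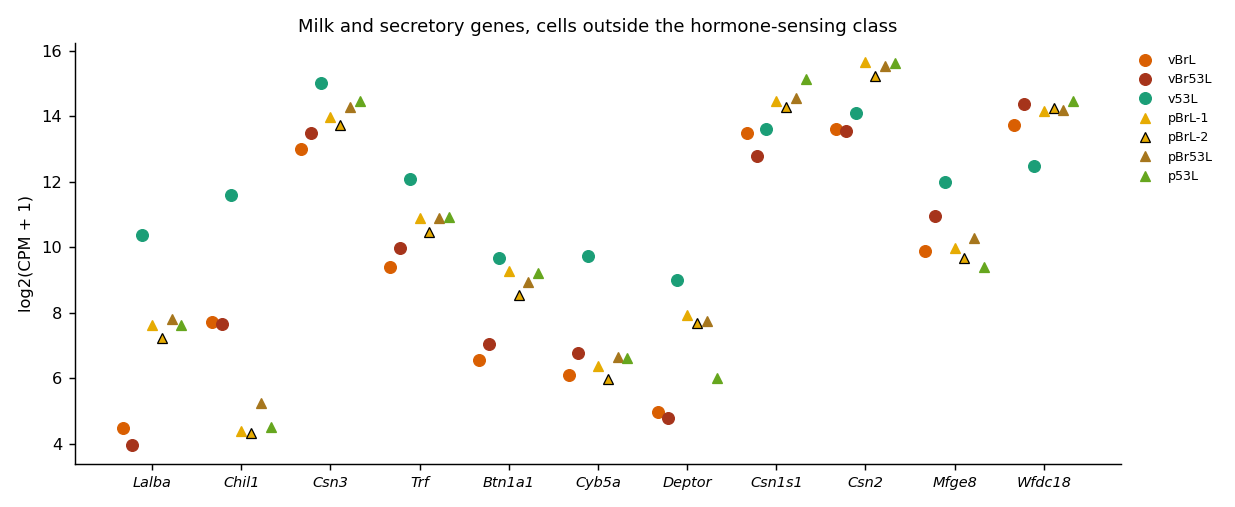
Levels of 11 milk and secretory genes, as log2(CPM + 1) of reads summed over cells outside the hormone-sensing class, in the 3 virgin mice (circles) and the 4 pregnant mice (triangles, pBrL-2 outlined in black). For *Lalba* and *Chil1* v53L lies above all other mice, at 1329 and 3115 CPM, and for *Wfdc18* it lies below both other virgin mice.

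Prolactin acts on milk genes through STAT5, whose site TTCNNNGAA was searched in the same windows on both strands. It stood in 7.02% of all 32851 windows and in 3 of the 9 milk protein genes that had a window (*Csn1s1*, *Csn2* and *Glycam1*). *Lalba* had no match in its window, and *Csn2*, which did not pass the test, had 1. Both windows overlap the longer GENCODE gene.

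Further genes named outside the class were of mixed function. *Deptor*, an inhibitor of mTOR, was at 30.1, 26.6 and 509 CPM (adjusted p = 0.0027), and *Cyb5a*, an electron carrier of lipid metabolism, at 67.98, 109.1 and 851 CPM (adjusted p = 0.0088). *Gle1*, *Rpap3*, *Atp6v1c1* and *Ostm1* were lower too, at adjusted p of 0.0075, 0.012, 0.013 and 0.0097, of which the first alone was also called with the correction (0.016). *Adamts15*, a secreted protease, had 0 reads in both deficient mice, but all of its 2491 reads in v53L came from 1 cell. On the higher side, beside *Mki67*, *Mcm5*, *Uhrf1*, *Rspo1*, *Thrb*, *Top2a* and *Cdk1*, the genes were *Zfp292*, *Tacc3*, *C1qtnf1*, *Ube2e3* and *Ap1m1*. *Ube2e3*, a ubiquitin-conjugating enzyme, was at 294 and 237 CPM against 5.86, a log2 change of 4.87 ± 0.58 (SE, adjusted p = 0.0040, and 0.049 with the correction), the single gene of these 12 called both ways. *Zfp292* had 78.7% of its vBrL reads and 57.4% of its vBr53L reads in 1 cell each, and its adjusted p over all cells was 0.285.

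The ligands of hormone-sensing cells differed by mouse. *Calca*, which encodes calcitonin and its related peptide (chromosome 7, 114631478 to 114636357), was at 1914, 1074 and 5.08 CPM in vBrL, vBr53L and v53L over all cells, without passing the test (adjusted p = 0.395). Inside the hormone-sensing class it stood at 10914, 8533 and 10.7 CPM. The 6 vBrL cells ran from 452 to 15406 CPM, the vBr53L cell was at 8533, and the 19 v53L cells ran from 0 to 151 with a median of 0, so v53L did not overlap with either deficient mouse. Outside the class it was at 344 and 779 CPM against 0 reads and was called both ways (adjusted p = 0.033, and 0.017 with the correction). In cells with a score below -5 *Calca* was at 53.1, 33.9 and 0 CPM (adjusted p = 0.098). *Tnfsf11*, the RANK ligand through which progesterone drives division of neighbouring cells, was at 1824 CPM in the class in vBrL, and had 0 reads there in vBr53L and v53L. *Areg*, the ligand through which estrogen acts on neighbours and one of the class genes, was at 362, 1217 and 558 CPM. *Socs2*, a feedback inhibitor of prolactin signalling, was at 879, 158 and 61.01 CPM in the class. *B2m*, the light chain of MHC class I, was at 16054, 9713 and 2894 CPM. These values rest on 6, 1 and 19 cells of 1 mouse each and were not tested.

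Of 28 gene lists, 10 had a summed level at least 2-fold apart from v53L in the same direction in both deficient mice. The proliferation, hormone ligand, basal, immune and fibroblast lists had the higher sums and the hormone receptor, estrogen response, p53 target, growth factor and tumor-linked lists the lower ones. A sum can rest on 1 gene, and for several lists the members did not share its direction. Of 6 hormone ligand genes tested 2 were higher and 3 lower in both deficient mice, with a median log2 change of -0.67 as fitted. Of 11 tumor-linked genes 5 were higher and 4 lower in both, with a median of 0.54, and *Prlr* made up 3713 of their 3847 CPM in v53L. Of 7 immune markers 1 was higher and 1 lower in both. Of the 18 p53 targets 7 were higher and 7 lower in both. Of all genes tested 31.3% were higher and 28.5% lower in both, and whether these lists differ from that was not tested. The 8 hormone receptor genes summed to 1830, 953 and 4730 CPM over all cells, mostly *Prlr*. Of these 8, 0 were called by edgeR, 0 with the correction and 3 had an unadjusted p under 0.05. Over all 15550 genes 0.9% and 0.167% were called and 1828 had such an unadjusted p. The 18 p53 targets summed to 2396, 2107 and 5218 CPM over all cells. Of these 18, 0 were called either way, where 0.9% and 0.167% of all genes were. An unadjusted p under 0.05 was found for 2, where it was for 1828 of all 15550 genes. Most of the v53L sum was *Trp53inp1*, a p53-induced regulator of cell death, at 747, 768 and 3830 CPM (adjusted p = 0.067), and outside the class at 604, 798 and 3713 CPM (adjusted p = 0.032, and 0.059 with the correction). *Cdkn1a* and *Mdm2*, other p53 targets, were at 75.6, 133 and 153 CPM and at 151, 294 and 109.3 CPM. Of the 12 growth factor genes 1 was called lower over all cells, where 0.141% of all genes were. This was *Fgfr2*, a fibroblast growth factor receptor, at 111, 44.9 and 619 CPM (adjusted p = 0.042, and 0.061 with the correction). The 21 genes of DNA break repair summed to 646, 359 and 352 CPM, so vBr53L stood close to v53L. Of them 13 were higher and 3 lower in both deficient mice, and 2 were called higher, where 0.759% of all genes were, and 0 with the correction. *Brca2*, which acts in the repair of DNA breaks, was at 25.4, 18.6 and 0 CPM and was called over all cells (adjusted p = 0.024) but not with the correction (0.384). Of 10 basal markers 1 was called higher over all cells, where 0.759% of all genes were, and 0 with the correction. This was *Krt14* (adjusted p = 0.0019, and 0.114 with the correction), at 42.6, 45.4 and 0 CPM, with reads after thinning in 5, 6 and 0 cells, while *Krt5* and the muscle genes *Myh11* and *Cnn1* had no read in the virgin mice. The tumor-linked list was drawn up from genes that the study discusses and with these samples in view, so it is not independent evidence of a direction.

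Some lists set the 2 deficient mice apart from each other. The 7 MHC class II genes summed to 1077, 41.1 and 102.8 CPM in vBrL, vBr53L and v53L. The 14 genes of NF-kB and chemokines summed to 2629, 9719 and 8514 CPM, led by *Lcn2*, an iron-binding defence protein, at 1789, 7817 and 6692 CPM. Over all cells edgeR called 0 genes of these lists, of the 20 interferon genes and of the 10 MHC class I genes, with or without the correction, where 0.9% and 0.167% of all genes were called, so 0 in lists this short says little. At an unadjusted p under 0.05 there were 1 for MHC class II, 2 for NF-kB, 5 for interferon and 1 for MHC class I, beside 1828 of all 15550 genes.

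**Figure D5:**
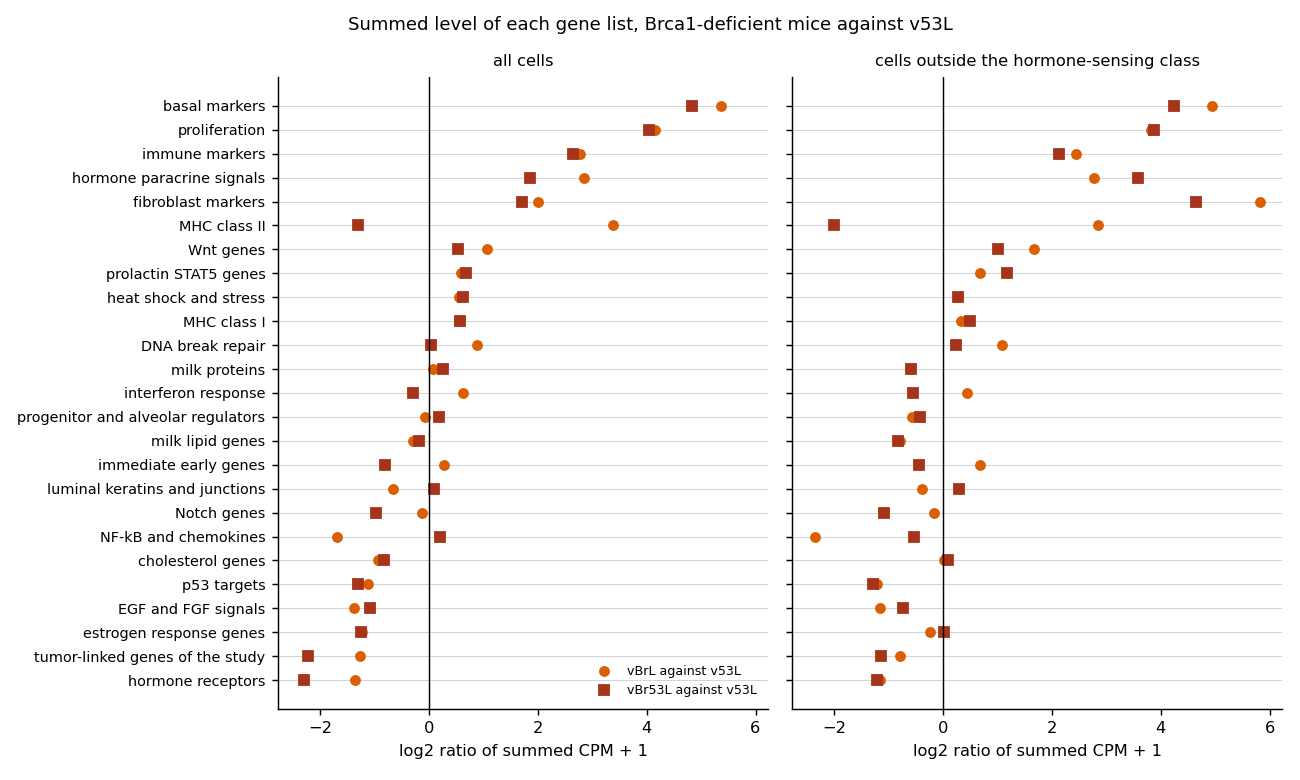
Log2 ratio of the summed CPM + 1 of each gene list in vBrL (circles) and vBr53L (squares) against v53L, over all cells (left) and cells outside the hormone-sensing class (right). The proliferation list lies right of 0 for both mice in both panels, the estrogen response list moves close to 0 outside the class, and MHC class II lies on opposite sides of 0 in the 2 mice.

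Whether the *Brca1* difference depended on stage was asked with an interaction term. It called 74 of 15550 genes (0.476%), 66 with a more positive *Brca1* difference in virgin than in pregnant mice (0.424%) and 8 with a more negative one (0.0514%), and 0 with the small-count correction (922 at an unadjusted p under 0.05). Without vBr53L the count was 221 and without vBrL 189. *Mki67* was called (adjusted p = 0.0028): the virgin deficient mice and v53L were at 126, 128 and 0.0248 CPM, and pBrL-1, pBrL-2 and pBr53L against p53L were at 162, 164 and 138 against 111. The fit ignores that 2 chips held a virgin and a pregnant mouse each. Taken within those chips (vBr53L and pBr53L on SC7, v53L and p53L on SC9), the difference of the log2(CPM + 1) differences was 6.67 for *Mki67*, -5.70 for *Lalba* and -0.49 for *Fgg*, whose sign was opposite to that of the fit. These 4 mice are also in the fit, so the values are no separate test of it. With chip as a block in limma 0 genes were called and 1578 had an unadjusted p under 0.05. For *Prlr* the interaction had an adjusted p of 0.477.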

How the data were processed

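Full-length cDNA of cells captured on Fluidigm C1 chips was sequenced. According to the study's methods and the labels, the authors filtered reads with sickle, trimmed them with Trim Galore 0.4.1, aligned them to mm10 with STAR 2.5.3a and counted them per gene with Subread 1.5.3. The deposited values are raw read counts for each gene in each cell. Molecules were not tagged, so copies of 1 molecule count separately. Annotation release and strand setting are not given in the sources used here, so genes that overlap or have an antisense partner cannot be separated. The authors looked for doublets under the microscope, and none were called again here.

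Counts were summed per mouse, which is the replicate, and tested with edgeR 4.0.16 in R 4.3.3 (quasi-likelihood, filterByExpr, TMM factors) over 7 luminal mice in 4 groups by stage and *Brca1*. Since v53L stood alone, it was assumed to vary like the other groups. Adjusted p-values (Benjamini-Hochberg) under 0.05 over all genes tested were called. The small-count correction is edgeR's newer deviance setting and was added after the data were seen, as was the score limit of -5. On simulated counts with the spread of the real ones, both edgeR settings made more false calls than their threshold allows, the default more than the small-count correction, and both missed many changed genes. Genes named for a comparison differed at least 2-fold in (CPM + 1) in the same direction in both deficient mice, had a mean of at least 50 CPM on the higher side, were not gene models, and had the 12 smallest p in each direction. Genes of the lists, *Brca1*, *Trp53*, *Esr1* and *Prlr* could also be named. Cluster leaders were named after their values were seen. Some genes that met the rule are not reported here. The members, lists and tests were chosen with earlier results of these data known. Positions are from GENCODE vM21 (GRCm38), which held 20919 of 21004 symbols. The alternatives were RLE factors, library size alone, no filter, DESeq2 1.42.0, limma 3.58.1 on the mean log2(CPM + 1) over cells (pseudocount 1), the virgin mice alone, the *Trp53* label as covariate, an additive fit, cells with at least 3000 genes, 30 cells per mouse, other class rules, chip as a block for the stage term and leaving out each mouse but v53L.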

Additional observations from a re-analysis of the deposited data

Results flagged for a closer look

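The *Brca1* difference of 18 named genes differed between virgin and pregnant mice by the interaction term (edgeR, adjusted p), where 0.476% of all genes did. With the small-count correction no gene was called, and v53L and p53L were 1 mouse each. The genes had been named for small p in the virgin comparison, which is part of this term and rests on the same v53L mouse. Calls among them were thus favoured by the choice and are no separate evidence. For cell cycle genes, which were absent or near absent in v53L and present in p53L, the adjusted p was 0.0028 for *Mki67*, 0.0044 for *Uhrf1*, 0.0063 for *Cdk1* and *Top2a*, 0.0076 for *Mcm5*, 0.0072 for *Pbk*, and 0.014 for *Birc5*, *Kif11* and *Tpx2*. *Rspo1* and *Thrb*, with 0 reads in v53L, were at 0.0063 each and *C1qtnf1* at 0.014. For genes higher in v53L than in p53L it was 0.014 for *Lalba*, 0.026 for *Tmed3*, 0.015 for *Deptor* and 0.022 for *Eps8*. *Adamts15* was at 0.038, on 1 cell of v53L. *Fgg* was at 0.015, with 0 reads in the *Brca1*-deficient pregnant mice and 6.37 CPM in p53L. In each case chip, mouse and genotype cannot be told apart.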

How the results depend on the processing

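The counts of called genes depended on the processing. Over all cells the 140 calls became 1886 with DESeq2, 354 without the filter on low counts, 79 with 30 cells per mouse, 73 with the 3 virgin mice alone, 63 with limma, 26 with the small-count correction and 0 with stage and *Brca1* additive (818 at an unadjusted p under 0.05). Leaving out each mouse but v53L in turn gave 124 to 343. The share higher in the deficient mice was 84.3% as reported, 14.3% with limma and 38.5% with the correction. Outside the hormone-sensing class the 385 calls became 2977 with DESeq2, 1396 with the class by clusters, 1148 below a score of -5, 973 without the filter, 721 in cells with at least 3000 genes, 161 with 30 cells per mouse, 13 with the correction, 5 with limma and 0 in the additive fit (945 unadjusted), and leaving out mice in the same way gave 304 to 1223. The share higher was 83.6% as reported, 67.9% with the virgin mice alone, 15.4% with the correction and 20% with limma. The 74 interaction calls became 1316 with DESeq2, 229 without the filter, 127 in cells with at least 3000 genes, and 0 with limma (1279 unadjusted) and the correction (922 unadjusted), and leaving out mice gave 76 to 221. With chip as a block in limma, an alternative added after seeing the data, it was also 0 (1578 unadjusted). The share of hormone-sensing cells in v53L was 65.5% in cells with at least 3000 genes, and stayed inside its interval under the other rules. Over all rules it ran from 11.4% to 25.7% in vBrL, from 2.56% to 5.13% in vBr53L and from 42.5% to 65.5% in v53L. In that class, with *Esr1* and *Prlr* at 100 CPM as the rule, log2 differences from v53L were -0.76 for *Prlr* in vBrL, -0.45 and -1.14 for *Esr1* in vBrL and vBr53L, and by clusters -0.36 and -0.72 for *Esr1*, where the score gave -0.21, 0.099 and -0.26. The log2 changes that follow are as fitted and not relative to the median gene. *Prlr* outside the class turned from -1.84 to 1.02 with the class by clusters and 0.43 below a score of -5. The median gene sat at 0.34, 0.74 and 0.68 in these fits, so below -5 *Prlr* stayed under it. *Brca1* turned from 1.19 to -2.44 with 30 cells per mouse and -0.85 without vBr53L, with 2.00 at most when a mouse was left out. *Trp53* turned from 0.36 to -0.15 without vBr53L (up to 0.72 without vBrL), and outside the class from -0.22 to 0.072 with library size alone, 0.96 with limma, 0.34 in the additive fit and 0.10 without vBrL (down to -0.64 without vBr53L). Outside the class the median gene sat at 0.34 as reported and 0.63 with library size alone, and *Trp53* stayed below it in both. The causes were not tested. DESeq2 and the left-out mice were not run within the hormone-sensing class, since vBr53L had 1 cell there. No paired analysis was possible because, for the virgin comparison, no chip holds mice of both genotypes and the replicate numbers in the labels count cells.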
